A study of Homo sapiens with 8 samples.

Results

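C/D box small nucleolar RNAs (SNORDs) are short RNAs of the nucleolus named for a pair of conserved sequence boxes. They were taken here as every gene whose symbol in the array's probe table begins with SNORD and a number, using features that carry exactly 1 symbol. This gave 152 genes of the 33616 with a single symbol, measured by 193 features. PC-3, a human prostate cancer cell line, was profiled on Clariom D microarrays in 4 groups of 2 arrays, each array from an independent experiment per the labels. The groups were control cells, cells given 10 nM calcitriol (the active form of vitamin D), cells given 5 ng/mL TGF-β1 (a secreted growth factor acting through SMAD transcription factors), and cells given both agents at those doses. Treatments lasted 24 h, and the labels give neither an incubation time nor a vehicle for the controls. All cells grew in medium with serum, and they come from 1 cell line, which limits them as a model of prostate tumours.

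Most C/D box snoRNAs pair with ribosomal or spliceosomal RNA and guide the enzyme fibrillarin to methylate a ribose at the paired position. Most human members are released from introns of other genes, so that their supply depends on transcription and splicing of a host gene as well as on assembly with fibrillarin, NOP56, NOP58 and SNU13. A few, such as U3 and U13, act in cutting or maturing the ribosomal RNA precursor, and several large families in imprinted regions have no settled ribosomal target. In prostate and other tumour cells, growth is accompanied by high ribosome production, in which these RNAs take part.

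Values are the deposited log2 levels, which differ by 1 for each doubling of signal. A feature was called above background on an array when its value was higher than the 95th percentile over the 612 negative controls there. Levels of different features depend on their own probes and are not compared with each other. In these bulk RNA samples, a change in the number of cells of a type and a change in RNA per cell cannot be told apart.

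The arrays carried the treatments. CYP24A1, which inactivates calcitriol, was 28.3-fold higher with both agents than in control (adjusted p = 0.00297, limma with Benjamini-Hochberg adjustment, n = 2 per group). TGFBI, a TGF-β target, was 9.10-fold higher in the same comparison (adjusted p = 0.000383, limma). With single agents, CYP24A1 was 21.95-fold higher with calcitriol (adjusted p = 0.0247, limma) and TGFBI 9.675-fold higher with TGF-β1 (adjusted p = 0.0004635, limma). The epithelial markers KRT8, KRT18, KRT19 and EPCAM, and VIM, were above background on all 8 arrays. So were the prostate genes KLK2, KLK3 and TMPRSS2, the fibroblast genes COL1A1 and COL1A2, the monocyte gene CD14 and the endothelial gene CDH5. The fibroblast gene DCN was above background on 7 arrays, CD3E of T cells on 6, PECAM1 of endothelium on 4, LUM of fibroblasts on 2 and the leukocyte gene PTPRC on 1. The part of other cell types in the results below was not tested.

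A minority of the SNORD genes gave a signal above background. Of the 152 genes, 51 were above background on all 8 arrays, 17 on 1 to 7 arrays and 84 on none. Testing took the feature with the highest mean for each gene, required a value above 4.34 (the 50th percentile of all values) on at least 2 arrays, and kept 68 SNORD genes among 23854 genes. SNORD67 passed this filter while under background on all arrays, and SNORD114-22 did not pass it while above background on 1. The 84 genes that did not pass it have no test. A feature at or under background gives only an upper bound and does not show that the RNA is absent from the cells.

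The imprinted families made up much of the set without signal. SNORD113, SNORD114, SNORD115 and SNORD116 together account for 63 of the 152 genes, and 2 of those 63 were above background on all 8 arrays, compared with 49 of the other 89 genes. All 9 SNORD113 genes and all 22 SNORD115 genes were at or under background on every array. Of the 30 SNORD114 genes, 25 were at or under background on every array, and SNORD114-31 was above it on all 8. The SNORD115 and SNORD116 families lie in the Prader-Willi region and SNORD113 and SNORD114 in the DLK1-MEG3 region, both expressed from 1 parental chromosome. Both measured SNORD116 genes were tested, and SNORD116-2 was above background throughout. Members of a family are related in sequence, so the array may not fully separate them.

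The negative control features are the reference for any shift of the whole set. Their median was 2.62 and 2.60 on the control arrays. It was 2.69 and 2.57 on the calcitriol arrays, 2.68 and 2.65 on the TGF-β1 arrays, and 2.70 and 2.81 on the arrays given both agents. With both agents it lay above the 4 arrays of the control and TGF-β1 groups, and 1 calcitriol array fell between the controls and the combination. The gap between positive and negative control features was 7.03 ± 0.015 (SD, n = 2) in control and 6.74 ± 0.051 with both agents. The deposited values thus carried a narrower range of signal over background in the combination group, and its part in the results was not tested.

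Over all 193 SNORD features the 3 treatments (calcitriol, TGF-β1 and both agents, in that order) had median log2 changes from control of 0.01, -0.01 and 0.05. The corresponding medians over the negative control features were 0.02, 0.02 and 0.10. Restricted to the 55 features above background on all 8 arrays, the SNORD medians were 0.01, -0.02 and -0.02. For the 68 genes tested, the medians were 0.02, -0.00 and 0.01, beside -0.03, -0.03 and -0.06 over all 23854 genes. When the negative control median of each array was subtracted, the SNORD medians became 0.00, -0.05 and -0.13. That subtraction lowers every gene by 0.14 in the combination comparison, so the sign of the set's median depends on the scale chosen. Cyclic loess over protein-coding genes gave a SNORD median of 0.12 in that comparison. On the deposited scale it was 0.09 without combination replicate A and -0.05 without combination replicate B.

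Other small RNA classes and protein-coding genes give the frame for these medians, and the differences between classes were not tested. With both agents, protein-coding genes had a median change of -0.12 and the 63 tested H/ACA box snoRNA genes, which guide pseudouridylation, one of -0.03. The 19 tested small Cajal body RNA genes had a median of -0.11. The 5862 tested pseudogenes had a median of 0.10, and 94 of them passed the test higher and 9 lower. The 662 tested U snRNA genes, most of them copies of the spliceosomal RNAs, had a median of 0.29. How many of the 662 are also in the pseudogene class was not counted. Beside 2.27% of all genes, 35 of the 662 passed the test, all higher. That count ranged from 0 to 29 with 1 array left out, and it was 0 without either combination array or without control replicate B. No H/ACA or Cajal body RNA gene passed in that comparison at an adjusted p under 0.05, while 12 and 2 of them did at an unadjusted p under 0.05, where 23.8% of all genes did.

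**Figure D1:**
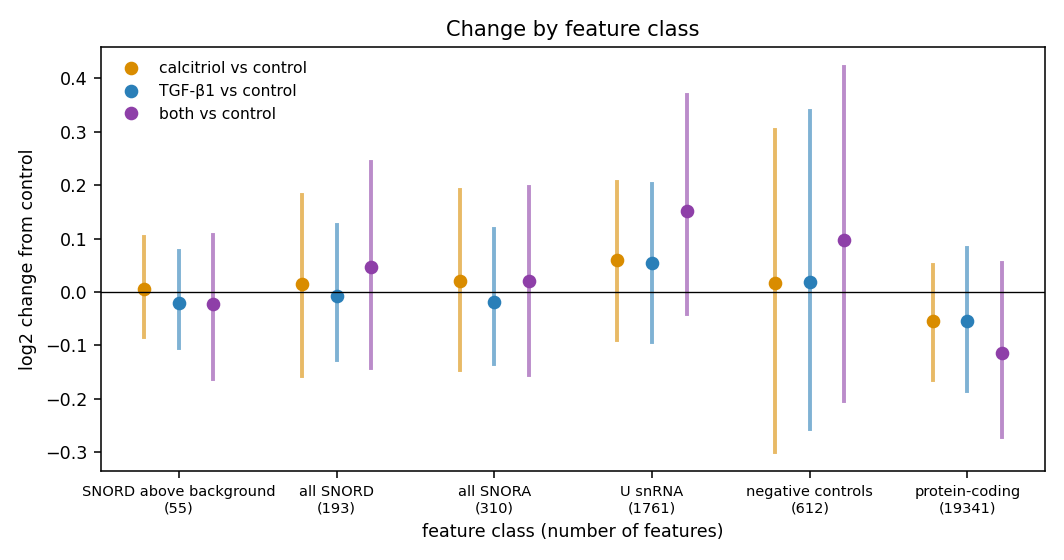
Log2 change from control (vertical axis) for features of 6 classes (horizontal axis, number of features in brackets), with dots for medians and bars for the middle 50 percent of features, coloured by treatment. SNORD features above background have medians between -0.02 and 0.01, whereas with both agents the negative controls are at 0.10 and the protein-coding features below 0.

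No SNORD gene passed the test in any of the 6 comparisons under the model used throughout. Calcitriol against control gave 0 of 68 SNORD genes at an adjusted p under 0.05 (limma, Benjamini-Hochberg over all genes), where 0.00838% of all genes passed. TGF-β1 against control gave 0 of 68, where 0.608% of all genes passed. Both agents against control gave 0 of 68, where 2.27% of all genes passed. The combination also gave 0 SNORD genes against TGF-β1 alone (0% of all genes) and 0 against calcitriol alone (0.587%). The interaction, which asks whether the 2 effects add on the log2 scale, gave 0 (0%). With an intensity trend in limma's prior variance, 10 of 68 SNORD genes passed for both agents against control, 6 higher and 4 lower. For both agents against calcitriol, 3 passed with the trend. Of all 23854 genes, 2996 passed with the trend in the first of these comparisons and 976 in the second. In the model used throughout, the lowest adjusted p of any SNORD gene in the 3 comparisons with control was 0.57, 0.08 and 0.0722 (limma).

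At an unadjusted p under 0.05, 4 SNORD genes were counted for calcitriol (5.88%, beside 7.34% of all genes), 4 for TGF-β1 (5.88%, beside 12.6%) and 12 for both agents (17.6%, beside 23.8%). The 12 were made up of 7 with higher and 5 with lower values, where 8.9% and 14.9% of all genes did the same. Against TGF-β1 alone the combination gave 3 (9.26% of all genes), against calcitriol alone 6 (14.7%), and the interaction 3 (5.15%). These shares were near or under those of all genes.

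Both arrays treated with both agents lay above both control arrays for 14 SNORD genes (20.6% of all genes did so) and below them for 11 (33.7%). For calcitriol these counts were 15 above (13.5% of all genes) and 9 below (23.2%), and for TGF-β1 12 above (17.1%) and 14 below (26.1%). The 3 comparisons share the same control arrays, so their counts are not independent.

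The size of change that these data allow can be stated. Among the 51 genes above background on all 8 arrays, changes from control ranged from -0.45 (SNORD19) to 0.48 (SNORD63) with calcitriol, from -0.68 (SNORD19) to 0.44 (SNORD63) with TGF-β1, and from -0.34 (SNORD23) to 0.67 (SNORD116-2) with both agents. SNORD63, inside HSPA9, read 6.78 and 6.18 in control, 7.29 and 6.62 with calcitriol, 6.88 and 6.95 with TGF-β1, and 7.01 and 7.26 with both agents. Its calcitriol arrays overlapped with control, and the values moved with single arrays: without control replicate A they were 0.78 for calcitriol and 0.74 for TGF-β1, and without control replicate B they were 0.18 and 0.14. Without calcitriol replicate A or B the calcitriol value was 0.14 or 0.81. The 95% interval of the change lay wholly within 2-fold in either direction for 50, 50 and 48 of the 51 genes, and within 1.5-fold for 38, 40 and 37. Among the 24 SNORD genes with a mean level of at least 8, the intervals lay within 2-fold for 24, 24 and 22 genes, with a median half-width of 0.27. The smallest change that passed the test for any gene was 1.64 with calcitriol, where only 2 genes passed. It was 0.61 with TGF-β1 and 0.47 with both agents. The replicate SD was 0.10 at the median for the genes with a mean level of at least 8 and 0.20 for the others.

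**Figure D2:**
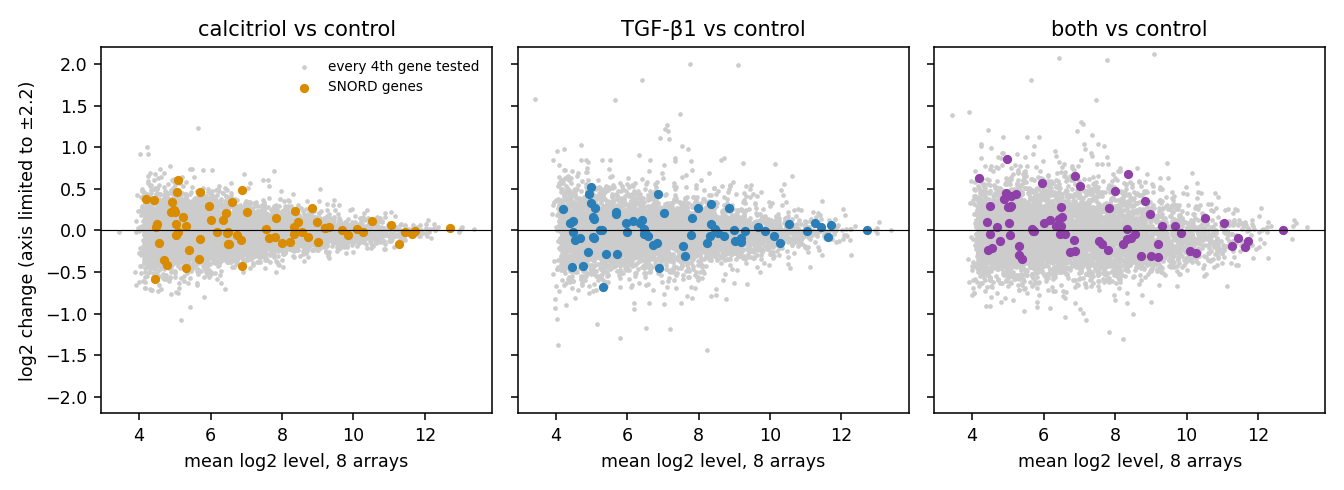
Log2 change from control (vertical axis) against mean log2 level over the 8 arrays (horizontal axis) for the 68 tested SNORD genes (coloured) and every 4th gene tested (grey), 1 panel per treatment. The coloured points lie within -0.68 (SNORD19, TGF-β1) to 0.86 (SNORD72, both agents) and spread more widely at low levels, where features near background such as SNORD72 lie. Without control replicate A or B the SNORD72 value was 1.28 or 0.44.

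The members that act in maturation of the ribosomal RNA precursor were the copies of U3 (SNORD3A, SNORD3B-2, SNORD3C, SNORD3D), U13 (SNORD13) and U14 (SNORD14A, SNORD14E). All 7 were above background on every array, and 0 of 7 passed the test in any comparison. U13, which helps modify the small subunit RNA, read 12.71 and 12.69 in control, 12.73 and 12.74 with calcitriol, 12.69 and 12.71 with TGF-β1, and 12.71 and 12.69 with both agents. The combination and control ranges overlapped, and the change was -0.00 with a 95% interval of -0.21 to 0.21 (adjusted p = 0.998, limma). For the U13 signal, a change of more than 1.5-fold lies outside that interval. The highest mean level of any single-symbol feature was 13.39, and whether signals flatten near that top was not tested.

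SNORD3A, a copy of U3, which directs the early cuts of the small subunit precursor, read 11.67 and 11.79 in control, 11.62 and 11.83 with calcitriol, 11.79 and 11.79 with TGF-β1, and 11.50 and 11.70 with both agents. Its combination and control values overlapped, and the change was -0.13 ± 0.12 (SE, adjusted p = 0.542, limma). SNORD3D gave 11.75 and 11.67 in control and 11.52 and 11.50 with both agents. Here both treated arrays were the lower ones, and the change was -0.20 ± 0.10 (adjusted p = 0.258, limma). The U3 copies are near-identical, so their 4 features do not count as separate evidence. SNORD3B-2 had a change of -0.19 and SNORD3C one of -0.09 in the same comparison.

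U14 guides a methylation in the small subunit RNA and also aids its processing. With both agents, SNORD14A, inside RPS13, had a difference from control of -0.10 ± 0.10 and SNORD14E, inside HSPA8, one of 0.16 ± 0.13 (SE, adjusted p = 0.586 and 0.493, limma). The 2 values have opposite signs, and both intervals include 0. The median over the 7 processing RNAs was -0.02, 0.02 and -0.10 under calcitriol, TGF-β1 and both agents. U8 (SNORD118) and U22 (SNORD22) have only features with several symbols and were not analysed here.

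**Figure D3:**
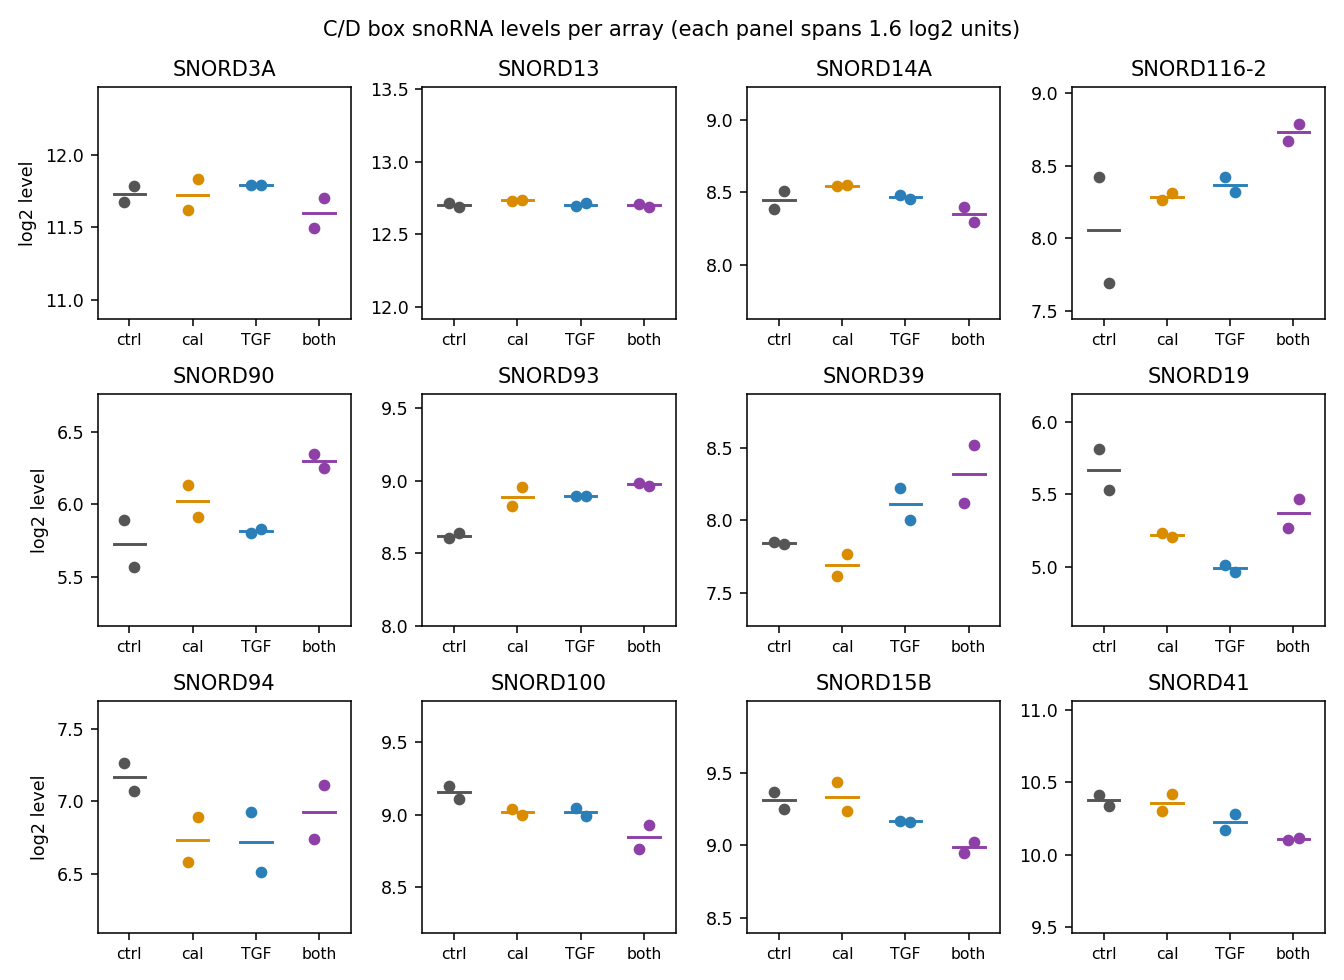
Log2 level (vertical axis) of 12 SNORD genes on each array, with dots for the 2 arrays and a bar for their mean, for control, calcitriol (cal), TGF-β1 (TGF) and both agents. SNORD13 lies between 12.69 and 12.74 in all groups, while SNORD116-2 has 1 control array at 7.69 and the other at 8.42.

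Among members outside the processing RNAs, the lowest p with both agents belonged to SNORD90, a snoRNA with no known ribosomal target that lies in the gene RC3H2. It read 5.89 and 5.57 in control, 6.13 and 5.91 with calcitriol, 5.80 and 5.83 with TGF-β1, and 6.35 and 6.25 with both agents. The combination arrays were the highest of the 8 and did not overlap with control. The change was 0.57 ± 0.14 (SE, interval 0.25 to 0.89, adjusted p = 0.0722, limma), beside 0.08 ± 0.10 for RC3H2 itself (adjusted p = 0.637, limma).

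SNORD93, a guide for the small subunit RNA, read 8.61 and 8.64 in control, 8.83 and 8.96 with calcitriol, 8.90 and 8.89 with TGF-β1, and 8.99 and 8.97 with both agents. All 6 treated arrays lay above both control arrays. The changes were 0.27 with calcitriol (adjusted p = 0.655), 0.27 with TGF-β1 (adjusted p = 0.311) and 0.35 ± 0.10 with both agents (adjusted p = 0.0919, limma). The 3 values share the control arrays.

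SNORD116-2, of the Prader-Willi region family, read 8.42 and 7.69 in control, 8.26 and 8.31 with calcitriol, 8.42 and 8.32 with TGF-β1, and 8.67 and 8.79 with both agents. The control arrays lay 0.73 apart, and both combination arrays were above both. The change was 0.67 ± 0.21 (adjusted p = 0.119, limma). That value moved with the control array used: without control replicate A it was 1.04 (adjusted p = 0.0352), and without control replicate B it was 0.31 (adjusted p = 0.295, limma). With all 8 arrays and an intensity trend in limma's prior variance, its adjusted p was 0.0093. SNORD116-1, the other measured copy, read 5.21 and 4.67 in control and 5.15 and 5.55 with both agents, and these ranges overlapped.

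SNORD39 illustrates how far 1 symbol can depend on the feature. The feature tested read 7.85 and 7.84 in control, 7.62 and 7.76 with calcitriol, 8.22 and 8.00 with TGF-β1, and 8.12 and 8.52 with both agents, a change of 0.48 ± 0.15 in the last group (adjusted p = 0.123, limma). The TGF-β1 and combination arrays lay above control and the calcitriol arrays below. The 3 other features under that symbol had changes of -0.02, 0.23 and -0.12 with both agents. SNORD39 is the 1 symbol of 152 without an entry in the RefSeq gene table.

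The lowest p among members with lower values in the combination group belonged to guides of ribosomal RNA. SNORD100, a guide for the small subunit RNA inside RPS12, read 9.20 and 9.11 in control, 9.04 and 9.0 with calcitriol, 9.05 and 8.99 with TGF-β1, and 8.76 and 8.93 with both agents. All 6 treated arrays were below both controls, and the combination change was -0.31 ± 0.10 (adjusted p = 0.137, limma), beside -0.12 ± 0.10 for RPS12. SNORD15B, a guide for the large subunit RNA inside RPS3, read 9.37 and 9.25 in control, 9.43 and 9.23 with calcitriol, 9.17 and 9.16 with TGF-β1, and 8.95 and 9.02 with both agents. Calcitriol overlapped with control, the other treatments did not, and the combination change was -0.32 ± 0.11 (adjusted p = 0.139, limma). SNORD41, another large subunit guide, read 10.41 and 10.34 in control and 10.10 and 10.12 with both agents, a change of -0.27 ± 0.10 (adjusted p = 0.166, limma).

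SNORD19, inside GNL3, gave the lowest p with either single agent. It read 5.81 and 5.53 in control, 5.23 and 5.20 with calcitriol, 5.01 and 4.97 with TGF-β1, and 5.27 and 5.47 with both agents. All treated arrays lay below both controls, with the TGF-β1 arrays lowest. The changes were -0.45 ± 0.13 with calcitriol (adjusted p = 0.57), -0.68 ± 0.13 with TGF-β1 (adjusted p = 0.08) and -0.30 ± 0.13 with both (adjusted p = 0.203, limma). The interaction was 0.83 ± 0.18 (adjusted p = 0.781, limma). A second feature with this symbol, under background on all arrays, had changes of 0.27, 0.35 and 0.24.

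The guides of the U6 spliceosomal RNA (SNORD7, SNORD8, SNORD9, SNORD67 and SNORD94) were all tested, and 0 of 5 passed in any comparison. SNORD94, inside PTCD3, read 7.27 and 7.07 in control, 6.58 and 6.89 with calcitriol, 6.93 and 6.51 with TGF-β1, and 6.74 and 7.11 with both agents. Each single agent lay below control, while the combination overlapped with it. The changes were -0.43 ± 0.19, -0.45 ± 0.19 and -0.24 ± 0.19 (adjusted p = 0.689, 0.394 and 0.472, limma). SNORD67 was under background on all arrays, with a combination difference of 0.63 (adjusted p = 0.141, limma). The median over the 5 was 0.04, -0.07 and 0.04.

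The remaining members with the lowest p in some comparison had modest values. SNORD83A, inside RPL3, read 5.60 and 5.47 in control and 6.16 and 5.85 with calcitriol (0.47 ± 0.15, adjusted p = 0.634, limma), and 5.68 and 5.37 with both agents. Its calcitriol arrays were the highest of the 8. SNORD103C had 1 control array at 5.17 and the other at 4.47, and both calcitriol arrays lay above them at 5.44 and 5.41. SNORD95 (0.33 ± 0.13) and SNORD6 (-0.31 ± 0.14) were named for TGF-β1, with adjusted p = 0.359 and 0.417 (limma). SNORD95 was measured by a feature that its identifier places on another chromosome than RefSeq does. Against TGF-β1 alone, the combination values of SNORD11B, SNORD13P1 and SNORD46 differed by 0.65, 0.32 and 0.19, with adjusted p = 0.537, 0.566 and 0.585 (limma). Against calcitriol alone, SNORD74 and SNORD14E differed by 0.44 and 0.32, with adjusted p = 0.284 and 0.312 (limma). SNORD96B and SNORD124 entered through the interaction, at 0.73 and 0.79, with adjusted p = 0.954 and 0.958 (limma). SNORD13P3, a copy related to U13, lay between 10.94 and 11.14 over the 8 arrays, with a combination change of 0.09. SNORD82, inside NCL, had a difference of 0.15 in the same comparison. None of these passed the test.

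Of the 4 core proteins of the C/D particle, 3 were measured; NOP56 shares its feature with several other symbols and was not analysed here. FBL, which encodes the methylase fibrillarin, read 10.24 and 10.32 in control, 10.02 and 10.05 with calcitriol, 9.97 and 10.01 with TGF-β1, and 9.49 and 9.84 with both agents. All 6 treated arrays were below both controls, and the combination change was -0.62 ± 0.13 (adjusted p = 0.0551, limma). SNU13, which binds the box structure first, had a change of -0.51 ± 0.12 (adjusted p = 0.0652), and NOP58, a scaffold protein, one of -0.21 ± 0.10 (adjusted p = 0.235, limma). Of these 3 core proteins 0 passed, where the median protein-coding change was -0.12.

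Among 11 assembly and export factors 0 passed with both agents, with a median change of -0.08, and 4 of the 11 changes were above 0. NOLC1, a nucleolar chaperone, stood at -0.44 ± 0.09 (adjusted p = 0.0575) and RUVBL1, a helicase of the assembly complex, at -0.49 ± 0.11 (adjusted p = 0.0618, limma). Of 17 proteins of the U3 particle and the small subunit processome 0 passed (median -0.26), and of 5 H/ACA proteins 0 (median -0.17). In the list for RNA polymerase I, which transcribes ribosomal RNA genes, the median with both agents was -0.19. Of its 17 changes 3 were above 0, up to 0.46 for TAF1B. In that list 1 of 17 passed, where 2.27% of all genes did. That gene was TAF1C, a subunit of the initiation factor, which fell by 0.59 on the log2 scale (SE 0.11, adjusted p = 0.0411, limma). Its adjusted p lay between 0.0683 and 0.167 with any 1 of the 8 arrays left out. Of 16 factors for intron and snoRNA end processing 0 passed (median -0.15). From a list of noncoding host genes only 3 were tested (EPB41L4A-AS1, LINC-PINT and ZFAS1), and 0 passed. Most others on it, such as GAS5 and SNHG1, have no single-symbol feature. ZFAS1 stood at -0.46 ± 0.13 (adjusted p = 0.102, limma). None of the 3 is a containing gene in the SNORD pairs described next. These lists were chosen with earlier results of the same data known.

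Intronic snoRNAs share a primary transcript with their host gene. By RefSeq coordinates, without regard to strand, 139 of the 152 SNORD genes lie inside 1 other gene, 5 inside several and 7 inside none, among them the U3 copies and U13, while SNORD39 has no RefSeq coordinates. For 30 pairs both the SNORD and the containing gene were tested, with 22 different containing genes. Of these 22, 0 passed the test in any of the 3 comparisons with control. The median change of the containing genes was -0.06, -0.08 and -0.16 and that of the SNORD genes 0.05, -0.06 and 0.02. Across the 30 pairs, which share arrays and in part host genes, Pearson's r was -0.02, 0.15 and 0.13 under calcitriol, TGF-β1 and both agents. The signs matched in 13, 21 and 16 pairs. These are descriptions across genes, not replicates.

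**Figure D4:**
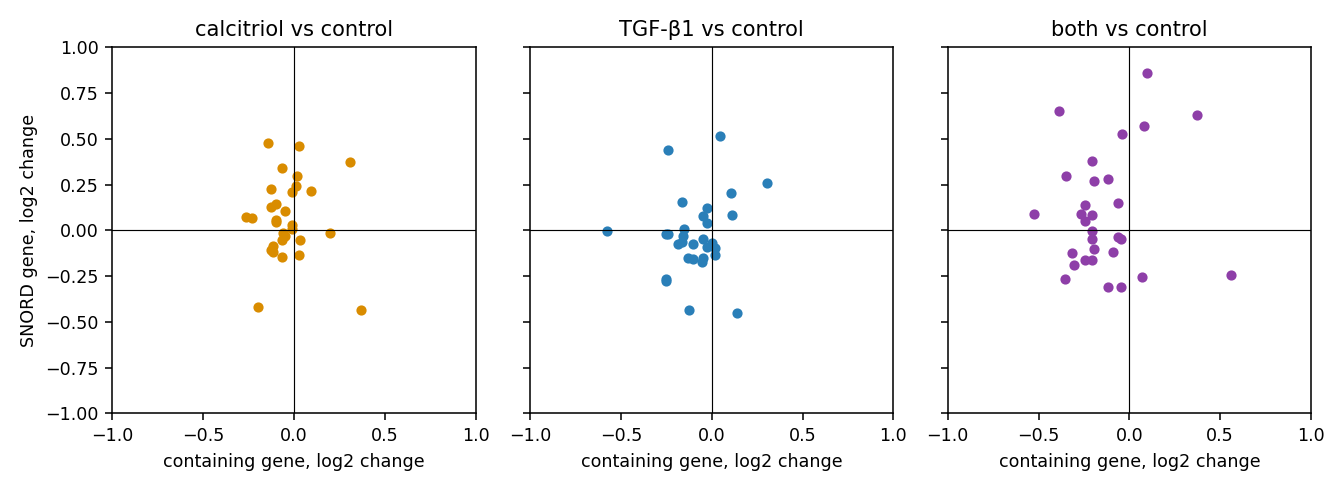
Log2 change of SNORD genes (vertical axis) against that of the gene that contains them (horizontal axis), 30 pairs per panel, for each treatment against control. The points form no line, with Pearson's r between -0.02 and 0.15.

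Several containing genes begin with a pyrimidine run, a feature of ribosomal protein and other growth-regulated genes whose translation follows growth signals. The run was searched on the gene's strand as a C at the RefSeq start followed by at least 4 further bases that were each C or T. It was found at 9 of 36 starts (25%) of the containing genes of tested members, beside 4.07% of 35116 starts of all genes. The following windows show 6 of the 9 genes, which contain SNORD100, SNORD15B, SNORD14A, SNORD24, SNORD17 and SNORD6 in that order, so that the runs of ribosomal protein genes can be set beside those of other genes. They run from 30 bases before the start to 20 from it, 5′ to 3′, from RefSeq (GRCh38.p14), with the run in capitals.
RPS12: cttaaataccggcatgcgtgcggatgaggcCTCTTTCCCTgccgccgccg
RPS3: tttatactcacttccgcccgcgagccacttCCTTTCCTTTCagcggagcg
RPS13: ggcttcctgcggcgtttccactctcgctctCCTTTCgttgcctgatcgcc
RPL7A: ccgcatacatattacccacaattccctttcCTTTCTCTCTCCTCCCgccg
SNX5: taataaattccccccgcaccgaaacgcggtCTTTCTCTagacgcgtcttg
TAF1D: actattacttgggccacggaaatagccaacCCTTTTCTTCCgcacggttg
These windows lie at chr6:132814539-132814588 (plus strand, RPS12), chr11:75399488-75399537 (plus strand, RPS3), chr11:17077648-17077697 (minus strand, RPS13), chr9:133348188-133348237 (plus strand, RPL7A), chr20:17968775-17968824 (minus strand, SNX5) and chr11:93741476-93741525 (minus strand, TAF1D). The capitals differ in length among the 6 genes, and 16 bases of run were found in RPL7A, which contains SNORD24, SNORD36A and SNORD36C, and 6 in RPS13. The 12 tested members inside the 9 genes with such a start had median changes of 0.02, -0.09 and -0.11, and the 40 members inside the other 30 containing genes, including those without a start in the table, 0.05, -0.02 and 0.05. This difference was not tested, and the features of SNORD24, SNORD36A and SNORD36C could not be matched to a chromosome. The 30 other containing genes include the ribosomal protein genes RPL37 (SNORD72), RPL3 (SNORD83A) and RPL23A (SNORD4A). The split thus does not divide ribosomal protein genes from other genes. SNORD sequences themselves were not used here.

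The identity of the features limits what a symbol stands for. Of the 193 features, 119 carry an Entrez identifier, and for all 119 the chromosome written in the feature's identifier is that of the RefSeq gene. Of the 74 without one, 56 were on another chromosome, 11 on the same and 7 could not be compared. Among the 68 tested genes, 10 were measured by a feature without a matching chromosome: SNORD23, SNORD46, SNORD56, SNORD66, SNORD74 and SNORD95 on another one, and SNORD24, SNORD36A, SNORD36C and SNORD39 without a comparison. For 21 symbols there are several features, 62 in all, and the feature with the highest mean was the one tested. A further 61 features carry several symbols including SNORD names and were left out by the rule, which leaves 96 SNORD symbols without a value here.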

How the data were processed

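RNA of PC-3 cells was hybridised to Clariom D arrays, 8 in all. The deposited values are log2 expression per feature for 138745 features. Per the submitters' processing notes, the authors used RMA, oligo and limma, and neither versions nor the order of steps are given in the sources used here. The base of the logarithm was taken as log2 because that is the usual RMA output, and the build of the array's annotation is not given in the sources used here.

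Here limma 3.58.1 (in R 4.3.3) estimated a mean for each of the 4 groups from the 8 arrays together, leaving 4 residual degrees of freedom, for 23854 genes and 6 contrasts. Tests were two-sided, with Benjamini-Hochberg adjustment across the genes in each contrast and a threshold of 0.05. Files were read with version 1.17.8 of data.table. Tables and figures were made in Python 3.11.15 with pandas 2.3.3 and matplotlib 3.10.9. Pipelines were tested on simulated data. The members, lists and roles were chosen with earlier results of these data known. The roles (processing RNAs, U6 guides) were grouped after values were seen. Genes named are the 5 SNORD genes with the lowest p in each contrast (where none passed), the 8 with the highest mean level, the processing RNAs, the imprinted families and members of the gene lists. SNORD41 belongs to the 8 with the highest level. SNORD23, SNORD63, SNORD72, SNORD3C, SNORD67, SNORD114-31 and SNORD116-1 enter as extremes, copies or group members. Gene names come from the platform's probe table, and containing genes, chromosomes and start sequences from RefSeq (GRCh38.p14, 151 of 152 symbols matched). The chromosome in a feature's identifier was that of RefSeq for 99.83% of 25037 features with an Entrez identifier. Experiments share letters A and B across groups in the titles. The deviations of same-letter arrays correlated at -0.0836 to 0.081, so the letters were not taken to pair the arrays. The alternatives tried concerned the filter, the feature used, the scale, the variance model, the letter as a block and each array left out. The number of arrays limits the precision.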

Additional observations from a re-analysis of the deposited data

How the results depend on the processing

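Of 182 recomputed values for 12 results, 172 kept their direction and their count or lay within the spread between arrays, and 10 moved. Part of the 172 was fixed in advance, since a median change stays the same when the array left out belongs to neither group compared. The tally is therefore not a measure of stability by itself. With both agents against control, 0 SNORD genes passed in the model described, 1 passed without a filter and 1 with every feature tested by itself (both SNORD114-21), 2 with the negative control median subtracted (SNORD100 and SNORD15B, lower), 1 with cyclic loess (SNORD90, 0.68, adjusted p = 0.0495) and 10 with an intensity trend in limma's prior variance. The 10 were SNORD116-2, SNORD39, SNORD56B, SNORD63, SNORD90 and SNORD93 on the higher side and SNORD100, SNORD15B, SNORD3D and SNORD41 on the lower side. Of all 23854 genes, 542 passed in the model described, 2141 with the negative control median subtracted, 749 with cyclic loess and 2996 with the trend. Without a filter 134 of 33616 genes passed, and 105 of 36176 features did when each was tested by itself. With TGF-β1, SNORD114-21 gave 1 without a filter and 1 with every feature tested by itself (1.21, adjusted p = 0.0416 and 0.0441, limma). Its values of 2.19 and 2.01 in control and 3.46 and 3.17 with TGF-β1 were all under background. In those settings 38 of all genes and 40 of all features passed with TGF-β1. Against calcitriol alone, the trend gave 3 (SNORD15B, SNORD39 and SNORD41), where 976 of all genes passed. With each array left out in turn, the combination count ranged from 0 to 1, the 1 being SNORD116-2 without control replicate A. The replicate block (letter A or B) gave 0 SNORD genes in all 6 contrasts. TAF1C had an adjusted p = 0.0645 (limma) with that block. The median combination change was -0.13 with the negative controls subtracted and 0.12 with cyclic loess, beside 0.01 in the model described. With 1 array left out it ranged from -0.05 (without combination replicate B) to 0.09 (without combination replicate A). The cause of these moves was not tested. Exact permutation with 2 arrays per group cannot pass a threshold of 0.05, and features near background allow only wide intervals.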
